A study of Gallus gallus with 13 samples.

Results

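The cell division genes described here are the genes of the RNA table whose name is CDK1 or ANLN, or begins with one of the letter groups of well-known division genes (MCM, CENP, KIF, CDC, BUB, AURK, PLK, CCNA, CCNB, CCNE, NCAP, TOP2A or NUSAP). The rule found 111 transcript rows of 83 Ensembl genes, and each gene was represented by its transcript of highest mean level. With a mean over the 5 RNA libraries of at least 2 RPKM (reads scaled to transcript length and to the size of the library), 82 of the table's 16737 Ensembl genes were members. The gene left out was KIF6, with a mean of 1.72 RPKM, and the lowest member was CCNA1 with 3.13 RPKM. Apart from this minimum the rule read only names, so it also took in genes with other work in the cell. It could not see the 2702 of 21998 transcript rows that carried no name. By their known roles, 38 members belong to 6 division lists: replication, cyclins and CDK1, kinetochore, mitotic kinases with CDCA8, mitotic kinesins, and condensin with TOP2A, NUSAP1 and ANLN. Another 20 were listed as kinesins of transport, cilia and signalling, among them KIF2A, which trims microtubule ends and could also be counted with division. A further 18 were placed together as genes known mainly for other work, though CENPJ and PLK2 also act in centriole duplication and CDC34 in protein breakdown at the step into S phase. Of the rest, 1 is a subunit of the anaphase-promoting complex, and 5 were in no list (KIF4, CENPR, KIF2B, MCM3AP and CDC2L6).

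The RNA came from limb bud mesenchyme of chicken embryos at Hamburger-Hamilton stage 24, infected with replicating avian retroviruses (RCASBP(A)) before plating. The cells were plated at high density as micromasses, a culture in which such mesenchyme forms cartilage, and were harvested after 9 days. The inserts of the viruses were FLAG-tagged mouse HOXD13, either wild type (HOXD13 wt) or with the homeodomain change Q317K or Q317R, and FLAG-tagged chicken PITX1, while the empty vector had no insert. The wild-type and mutant genes were therefore added to whatever the limb cells made of their own, and the empty vector cultures carried the virus too. Each group had 1 RNA library, so no difference between conditions could be tested, and "higher" and "lower" describe these libraries.

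In a dividing cell, the MCM helicase is loaded on replication origins and started by the kinase CDC7 with CDC45. CDK1 with cyclins A and B drives entry into mitosis, where condensin and topoisomerase II shape the chromosomes, the kinetochore joins them to the spindle, and Aurora and Polo-like kinases and kinesins govern their movement. Limb mesenchyme proliferates, and chondrocytes later slow their division as they mature. In RNA from whole cultures, fewer dividing cells and less RNA per dividing cell cannot be told apart.

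The libraries held 14069766 to 16793118 reads, worked out from the RPKM values. A member rested on 23 to 7306 reads in a library, with a median of 366. Intervals in brackets are 95% exact intervals of a ratio of RPKM and cover counting error only. Cartilage markers were present in every library, with 7 of 8 listed genes measured and a summed level of 18100 RPKM in the empty vector, 13556 in Q317R, 5102 in HOXD13 wt, 4139 in PITX1 and 2388 in Q317K. In the PITX1 library the PITX1 row had 10233 RPKM, against 24.8 to 64.5 in the others, and the HOXD13 row had 36.8 to 63.4 RPKM in the HOXD13 libraries, against 13.1 and 16.6. The HOXD13 row is the chicken gene and the insert was mouse, so it may miss reads of the insert. The level of HOXD13 from the virus therefore cannot be read from it or set against PITX1. Erythroid markers, with 4 of 10 listed genes measured, summed to 870 RPKM in the PITX1 library and 15.2 to 24.2 in the others. The globin genes HBE and HBB made up this sum in PITX1, at 747 and 116 RPKM, while TAL1 and HBAD were lower there (4.35 and 2.28 RPKM) than in the empty vector (5.85 and 3.17).

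By summed level and by median ratio, though not gene by gene, the 38 division members stood slightly higher in each factor library than in the empty vector. Their summed level was 503 RPKM in the empty vector, 590 in PITX1, 624 in HOXD13 wt, 688 in Q317R and 689 in Q317K. On the log2 scale of RPKM + 1, their median ratio to the empty vector was 0.46 in Q317R, 0.31 in Q317K, 0.29 in HOXD13 wt and 0.20 in PITX1. Over all 15692 genes with a mean of at least 2 RPKM, the medians were 0.00, −0.05, −0.03 and −0.08. All 4 comparisons use the same empty vector library, so they do not repeat each other. The genes of a list were read in the same libraries and can differ together, so counts of genes are not counts of separate observations.

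Counted by gene, 34 of the 38 were above the empty vector in HOXD13 wt, against 46.7% of all genes tested, and 34 were above it in Q317K, against 44.6%. In Q317R 34 were above it, against 50.5% of all genes, and in PITX1 30, against 42.0%. Counts of 1.5-fold here are on the log2 scale of RPKM + 1. At least 1.5-fold higher were 7 of the 38 in HOXD13 wt (18.4%, against 6.91% of all genes). In Q317K 6 were (15.8%, against 6.63%) and in Q317R 9 (23.7%, against 6.45%). In PITX1 2 were (5.26%, against 5.52%), near the share of all genes. None of the 38 was 1.5-fold lower in any of the 4 comparisons, where 8.54%, 10.3%, 5.98% and 9.58% of all genes were. The highest of the 5 levels of a division member lay in Q317R for 20 genes, in HOXD13 wt for 8, in Q317K for 8, in PITX1 for 2 and in the empty vector for none. Over all genes tested the empty vector held the highest level for 30.3% and Q317R for 21.2%.

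The empty vector had the highest cartilage markers and the lowest summed division level (503 RPKM). Q317K had the lowest cartilage markers and the highest summed division level (689 RPKM). Between these ends the order was not inverse. PITX1 had lower cartilage markers than HOXD13 wt and also a lower summed division level (590 against 624 RPKM). Q317R, whose cartilage markers were second only to the empty vector, had about the same summed division level as Q317K, whose cartilage markers were the lowest. KIFC1, the most abundant of the 38, held 97.5 RPKM of the Q317R sum and 121 RPKM of the Q317K sum. By the median log2 ratio to the empty vector Q317R stood higher, at 0.46 against 0.31 in Q317K. The cartilage markers took 3.13% of the reads of the empty vector, 2.38% in Q317R and 0.39% to 0.889% in the other libraries. With RPKM taken per read outside these markers, the median ratios of the division members were 0.45 in Q317R, 0.28 in Q317K, 0.26 in HOXD13 wt and 0.16 in PITX1, an alternative chosen after seeing the data. This rescaling only takes marker reads out of the library total and cannot show the part of the cartilage difference in the division levels. That part was not tested.

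**Figure D1:**
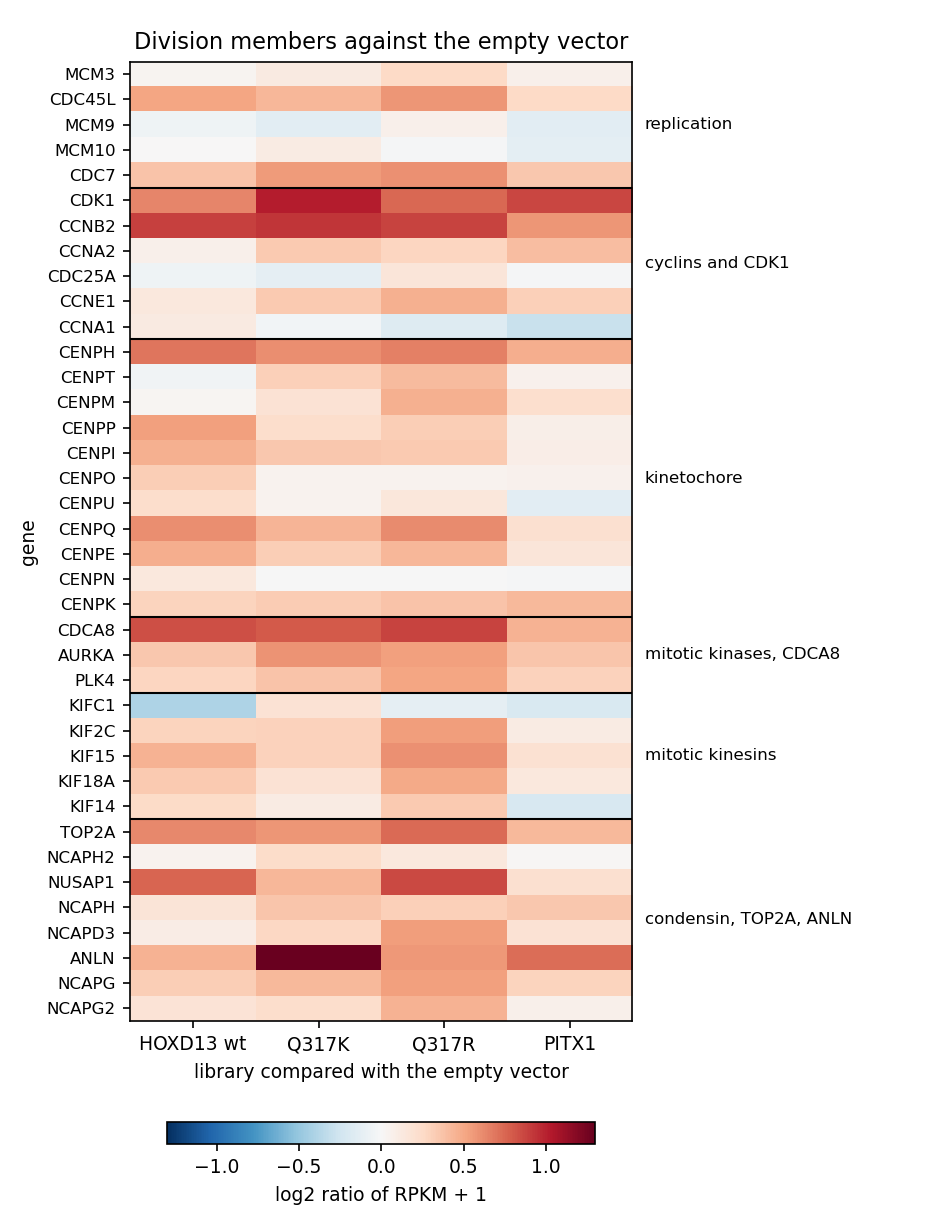
Log2 ratio of RPKM + 1 to the empty vector for the 38 division members, in rows grouped by role, in the 4 factor libraries. Red is higher than the empty vector and blue lower; CDK1, CCNB2, CDCA8 and ANLN carry the deepest red, and KIFC1 in HOXD13 wt, at −0.40, is the bluest cell.

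Among the cyclins and their kinase, CDK1 and CCNB2 stood apart from the rest. CDK1, the kinase of mitotic entry, was at 28.0 RPKM in the empty vector, 43.9 in HOXD13 wt, 47.5 in Q317R, 51.9 in PITX1 and 57.8 in Q317K. Its ratio to the empty vector was 1.57 (1.40 to 1.76) in HOXD13 wt, 1.70 (1.52 to 1.90) in Q317R, 1.86 (1.67 to 2.07) in PITX1 and 2.07 (1.85 to 2.31) in Q317K. The empty vector was thus the lowest of the 5 libraries, and all 4 counting intervals left out 1.

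CCNB2, a B-type cyclin that activates CDK1, had 21.2 RPKM in the empty vector and 31.9 in PITX1, while the HOXD13 libraries lay close together at 40.0 (wt), 41.2 (Q317K) and 39.8 (Q317R). Between Q317K and HOXD13 wt its ratio was 1.03 (0.936 to 1.13), and between Q317K and PITX1 1.29 (1.17 to 1.43). For CCNB2 the PITX1 library was between the empty vector and the HOXD13 forms. CCNA2, the cyclin A of S phase and G2, ranged less, from 13.8 RPKM in the empty vector and 14.5 in HOXD13 wt to 17.1 in Q317R, 17.7 in Q317K and 18.6 in PITX1. Its ratio in HOXD13 wt was 1.05 (0.916 to 1.20), an interval that includes 1.

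The genes of the step into S phase differed less than CDK1 and CCNB2. CCNE1, the cyclin E that partners CDK2, stood at 5.29 RPKM in the empty vector and 5.90 to 7.70 in the factor libraries, with the highest level in Q317R. CDC25A, a phosphatase that activates cyclin-dependent kinases, was at 11.7 RPKM in the empty vector and 10.7 to 13.2 in the factor libraries, and the interval of its ratio included 1 in all 4 comparisons. CCNA1, an A-type cyclin known in mammals mainly from germ cells, had 2.55 to 3.69 RPKM and likewise no ratio whose interval left out 1.

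**Figure D2:**
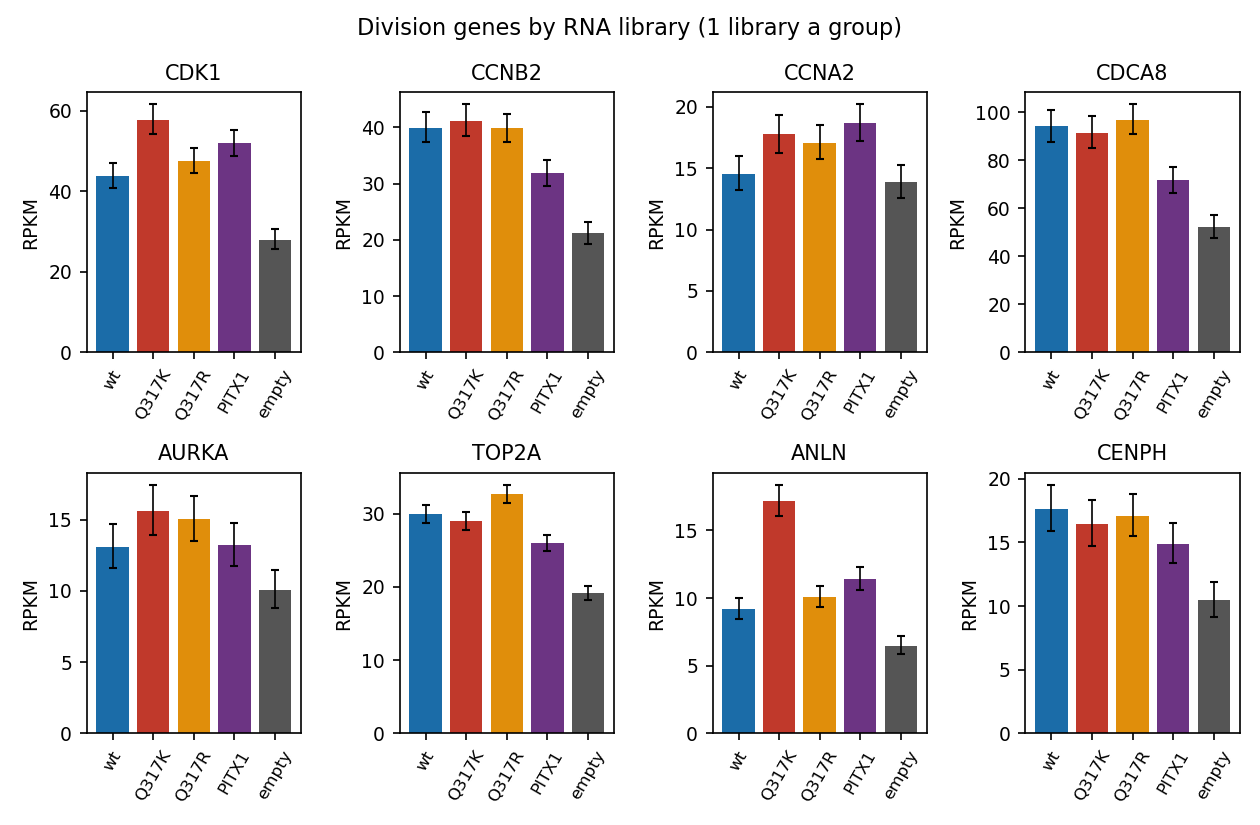
RPKM of 8 division genes in the 5 RNA libraries, 1 library a group; bars start at 0 and error bars are 95% exact Poisson intervals of the reads. In all 8 panels the empty vector bar is the lowest, and ANLN is highest in Q317K at 17.2 RPKM.

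The 5 replication members had the smallest median of the 6 division lists in each of the 4 comparisons with the empty vector, with median log2 ratios of 0.04 in HOXD13 wt, 0.12 in Q317K, 0.26 in Q317R and 0.07 in PITX1. MCM2, MCM4, MCM5, MCM6, MCM7 and CDC6 were not among the members. From the other division lists CCNB1, PLK1, AURKB, BUB1, CDC20, KIF11 and KIF23, among others, were missing too. The minimum level removed only KIF6, so the missing genes had no row with a name the rule could read. Their absence says nothing about their level, and the 38 are not a full set of division genes. The 19 measured replication genes outside the name rule had larger medians, of 0.30, 0.26, 0.44 and 0.24 in the same order. MCM3, a subunit of the replicative helicase, stood at 38.4 RPKM in the empty vector, 39.4 in HOXD13 wt, 40.3 in PITX1, 41.7 in Q317K and 46.1 in Q317R. Its ratio of 1.20 (1.13 to 1.28) in Q317R was the largest of its 4. MCM10, which helps to start the helicase, was level, with 6.29 RPKM in the empty vector and 5.70 to 6.83 in the factor libraries. MCM9, a relative of the helicase subunits with a role in DNA repair, was level too, with 6.56 RPKM in the empty vector and 5.88 to 6.94 in the others.

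CDC7 and CDC45L (the older symbol of CDC45), which act when an origin fires, differed more than the MCM genes. CDC45L stood at 10.5 RPKM in the empty vector, 12.7 in PITX1, 14.5 in Q317K, 15.4 in HOXD13 wt and 16.1 in Q317R. CDC7 stood at 3.79 RPKM in the empty vector, 5.10 in PITX1, 5.19 in HOXD13 wt, 6.01 in Q317K and 6.24 in Q317R. Both were lowest in the empty vector and highest in Q317R, and CDC7 was the only replication member at least 1.5-fold higher on the log2 scale of RPKM + 1, in Q317R with a ratio of 1.65 (1.28 to 2.12).

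Most of the 11 measured kinetochore genes encode subunits of the constitutive network that sits on the centromere throughout the cycle, and they were low, at 4 to 15 RPKM on average. Their median log2 ratio was 0.32 in HOXD13 wt, 0.31 in Q317K, 0.37 in Q317R and 0.08 in PITX1. CENPH stood at 10.5 RPKM in the empty vector, 14.9 in PITX1, 16.5 in Q317K, 17.1 in Q317R and 17.6 in HOXD13 wt, with a ratio of 1.68 (1.42 to 1.99) in HOXD13 wt. CENPQ had 4.14 RPKM in the empty vector, 4.94 in PITX1, 5.97 in Q317K, 6.83 in HOXD13 wt and 6.88 in Q317R. For both genes PITX1 was the lowest of the factor libraries and HOXD13 wt and Q317R the highest.

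CENPE, the kinesin that carries chromosomes along the spindle, followed the same order, with 3.65 RPKM in the empty vector, 4.17 in PITX1, 4.79 in Q317K, 5.27 in Q317R and 5.44 in HOXD13 wt. CENPP was highest in HOXD13 wt, at 10.2 RPKM against 6.72 in the empty vector and 7.14 to 8.63 in the others. CENPT, which links centromeric DNA to the microtubule-binding part of the kinetochore, was level between HOXD13 wt and the empty vector (9.20 and 9.51 RPKM) and highest in Q317R at 13.0. CENPM likewise stood at 7.97 RPKM in the empty vector, 8.15 in HOXD13 wt and 11.4 in Q317R, and CENPN, which reads the centromeric nucleosome, was at 4.35 to 4.94 RPKM throughout. The order of libraries thus differed between these kinetochore genes, some of them on few reads (65 to 102 for CENPM, 68 to 81 for CENPN). Between Q317R and HOXD13 wt the ratio was 1.40 (1.01 to 1.93) for CENPM and 0.848 (0.689 to 1.04) for CENPP. Counting error can change such an order.

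CDCA8 (borealin), a subunit of the chromosomal passenger complex that holds Aurora B at the centromere, had the highest level of the 38 after KIFC1. It stood at 52.1 RPKM in the empty vector, 71.8 in PITX1, 91.6 in Q317K, 94.1 in HOXD13 wt and 97.0 in Q317R. The ratio was 1.81 (1.61 to 2.03) in HOXD13 wt, 1.76 (1.56 to 1.98) in Q317K, 1.86 (1.66 to 2.08) in Q317R and 1.38 (1.22 to 1.55) in PITX1. As for CCNB2, the HOXD13 libraries lay within 1.03-fold of the wild type and PITX1 lay below them. AURKA, the Aurora kinase of the spindle poles, had 10.0 RPKM in the empty vector, 13.1 in HOXD13 wt, 13.2 in PITX1, 15.0 in Q317R and 15.6 in Q317K. PLK4, the kinase that starts centriole duplication, had 7.24 RPKM in the empty vector and 8.97 to 10.8 in the factor libraries, highest in Q317R.

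The mitotic kinesins were mostly above the empty vector as well. KIF2C, which depolymerises microtubules at centromeres, was at 13.8 RPKM in the empty vector and 14.9 to 20.5 in the factor libraries, and KIF15, a spindle motor, at 8.0 and 9.34 to 12.6. Both were highest in Q317R, with ratios of 1.49 (1.34 to 1.66) and 1.57 (1.42 to 1.74). KIF18A, which limits chromosome oscillation, was at 4.44 RPKM in the empty vector and 4.97 to 6.66 in the others. KIF14, a motor of cytokinesis, stood at 3.37 RPKM in the empty vector, 2.77 in PITX1 and 4.53 in Q317R. KIFC1, a minus-end motor that gathers spindle poles, had the highest level of the 38 and another order of libraries. It was at 106 RPKM in the empty vector, 79.9 in HOXD13 wt, 91.7 in PITX1, 97.5 in Q317R and 121 in Q317K. Its ratio was 0.756 (0.711 to 0.804) in HOXD13 wt and 1.14 (1.08 to 1.21) in Q317K, so Q317K stood 1.51-fold (1.42 to 1.60) above the wild type.

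KIF4, CENPR and KIF2B are linked to division too, but their labels were not among the names in the lists. KIF4, a chromosome-bound kinesin of the spindle midzone, stood at 20.6 RPKM in the empty vector, 24.9 in HOXD13 wt, 28.4 in PITX1, 32.4 in Q317K and 33.5 in Q317R. CENPR, a kinetochore protein counted from 38 to 91 reads, stood at 5.03 to 10.1 RPKM, lowest in Q317K and highest in Q317R. KIF2B, a kinesin with a known part in human mitosis, went the other way, with 7.08 RPKM in the empty vector, 6.25 in HOXD13 wt, 4.80 in PITX1, 4.79 in Q317R and 4.30 in Q317K. Adding KIF4 and CENPR to the 38 gave median log2 ratios of 0.28 in HOXD13 wt, 0.31 in Q317K, 0.47 in Q317R and 0.20 in PITX1. Adding KIF2B, CENPJ, PLK2 and CDC34 as well gave 0.27, 0.31, 0.44 and 0.17. Both alternatives were chosen after seeing the data.

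In the chromosome and cleavage group all 8 members were above the empty vector in each of the 4 comparisons, against 42.0% to 50.5% of all genes. TOP2A, the topoisomerase that untangles sister chromosomes, stood at 19.1 RPKM in the empty vector, 26.0 in PITX1, 28.9 in Q317K, 29.9 in HOXD13 wt and 32.6 in Q317R. Its ratio of 1.71 (1.60 to 1.82) in Q317R and 1.36 (1.27 to 1.45) in PITX1 had intervals that did not meet. NUSAP1, which bundles spindle microtubules, was at 9.13 RPKM in the empty vector, 10.7 in PITX1, 12.7 in Q317K, 16.1 in HOXD13 wt and 17.3 in Q317R. HOXD13 wt and Q317R thus stood above Q317K and PITX1 for NUSAP1.

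ANLN (anillin), the scaffold of the cleavage furrow, had another order. It was at 6.48 RPKM in the empty vector, 9.20 in HOXD13 wt, 10.1 in Q317R, 11.4 in PITX1 and 17.2 in Q317K. The ratio to the empty vector in Q317K, 2.65 (2.35 to 2.99), was the largest of any of the 38 in any of the 4 comparisons. Against HOXD13 wt, Q317K was 1.87-fold (1.68 to 2.08) higher, and against PITX1 1.5-fold (1.36 to 1.66). Anillin also binds the actin cytoskeleton between divisions.

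The condensin subunits were higher by less. NCAPG and NCAPH, of condensin I, stood at 6.15 and 10.8 RPKM in the empty vector, at 7.74 to 9.34 and 12.3 to 14.2 RPKM in the factor libraries. NCAPD3, of condensin II, was highest in Q317R at 14.6 RPKM, against 9.65 in the empty vector. The ratio there was 1.51 (1.38 to 1.65). NCAPG2 and NCAPH2, of the same complex, were at 5.77 and 16.0 RPKM in the empty vector and at 6.07 to 8.24 and 16.1 to 19.03 RPKM in the factor libraries. CDC23, the subunit of the anaphase-promoting complex, ranged from 19.3 RPKM in the empty vector to 23.2 in Q317K.

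**Figure D3:**
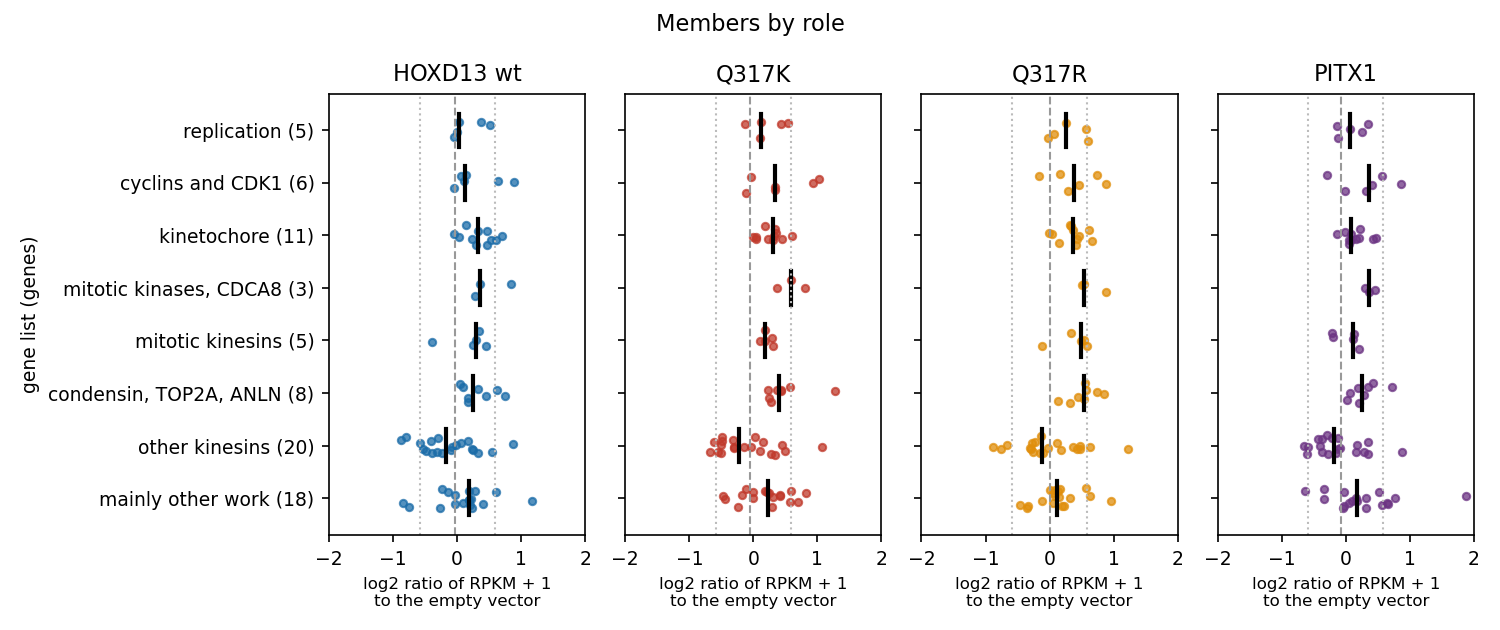
Log2 ratio of RPKM + 1 to the empty vector for members by role; each point is a gene, the black line the median of the list, the dashed line the median of all genes tested and the dotted lines 1.5-fold. Medians of the 6 division lists lie right of the dashed line in each panel, and those of the other kinesins left of it.

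The 20 kinesins of transport, cilia and signalling had medians below those of all genes tested in each comparison with the empty vector. Their median log2 ratio to the empty vector was −0.17 in HOXD13 wt, −0.23 in Q317K, −0.12 in Q317R and −0.18 in PITX1. Above the empty vector were 7, 8, 8 and 6 of them, against 46.7%, 44.6%, 50.5% and 42.0% of all genes. At least 1.5-fold higher were 1, 1, 2 and 1 of them (5%, 5%, 10% and 5%), against 6.91%, 6.63%, 6.45% and 5.52% of all genes, and 2, 2, 3 and 3 were lower (10%, 10%, 15% and 15%), against 8.54%, 10.3%, 5.98% and 9.58%. With 20 genes, these counts were near those of all genes. KIF26B, an unconventional kinesin of cell adhesion and polarity, stood at 15.3 RPKM in the empty vector, 12.1 in Q317R, 9.79 in PITX1, 9.14 in Q317K and 8.39 in HOXD13 wt. KIFC3, a minus-end motor found at cell junctions, had 44.5 RPKM in the empty vector, 32.6 in PITX1, 31.5 in Q317K, 26.0 in Q317R and 23.7 in HOXD13 wt. For both, the empty vector was the highest library and HOXD13 wt the lowest. KIF7, which acts on hedgehog signalling in the cilium, was at 33.3 RPKM in the empty vector and 26.6 to 32.2 in the others.

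KIF26A, a relative of KIF26B that lacks motor activity in mammals, had the widest range of all members. It stood at 46.9 RPKM in Q317K, 21.7 in the empty vector, 16.6 in PITX1, 14.8 in HOXD13 wt and 11.3 in Q317R, and the highest level was 4.13 times the lowest. Q317K was 2.16-fold (2.04 to 2.29) above the empty vector, 3.18-fold (2.97 to 3.40) above HOXD13 wt and 2.83-fold (2.66 to 3.01) above PITX1. In Q317R the ratio to the empty vector was 0.522 (0.482 to 0.564), so the 2 mutant libraries lay on opposite sides of the empty vector.

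KIFAP3 and KIF21A were high in Q317R. KIFAP3, the adaptor that ties kinesin-2 to its cargo, was at 29.7 RPKM in Q317R, 23.0 in HOXD13 wt, 15.7 in Q317K, 15.7 in PITX1 and 12.2 in the empty vector, with a ratio of 2.45 (2.21 to 2.71) in Q317R. KIF21A, a motor that steadies microtubule growth, was at 10.3 RPKM in Q317R, 7.17 in the empty vector, 5.63 in HOXD13 wt, 4.38 in PITX1 and 4.36 in Q317K. KIF5B, the widespread heavy chain of kinesin-1, was instead highest in PITX1, at 62.6 RPKM against 33.5 in the empty vector and 39.8 to 45.8 in the HOXD13 libraries. KIF1B, another cargo motor, ranged from 22.0 RPKM in the empty vector to 30.9 in Q317R, and KIF2A, which trims microtubule ends, from 15.3 to 24.2 in the same libraries. The 2 Ensembl genes labelled KIF19, a motor of cilia, were both highest in the empty vector, at 21.8 and 13.6 RPKM, against 15.1 to 18.5 and 8.98 to 11.2 in the others.

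**Figure D4:**
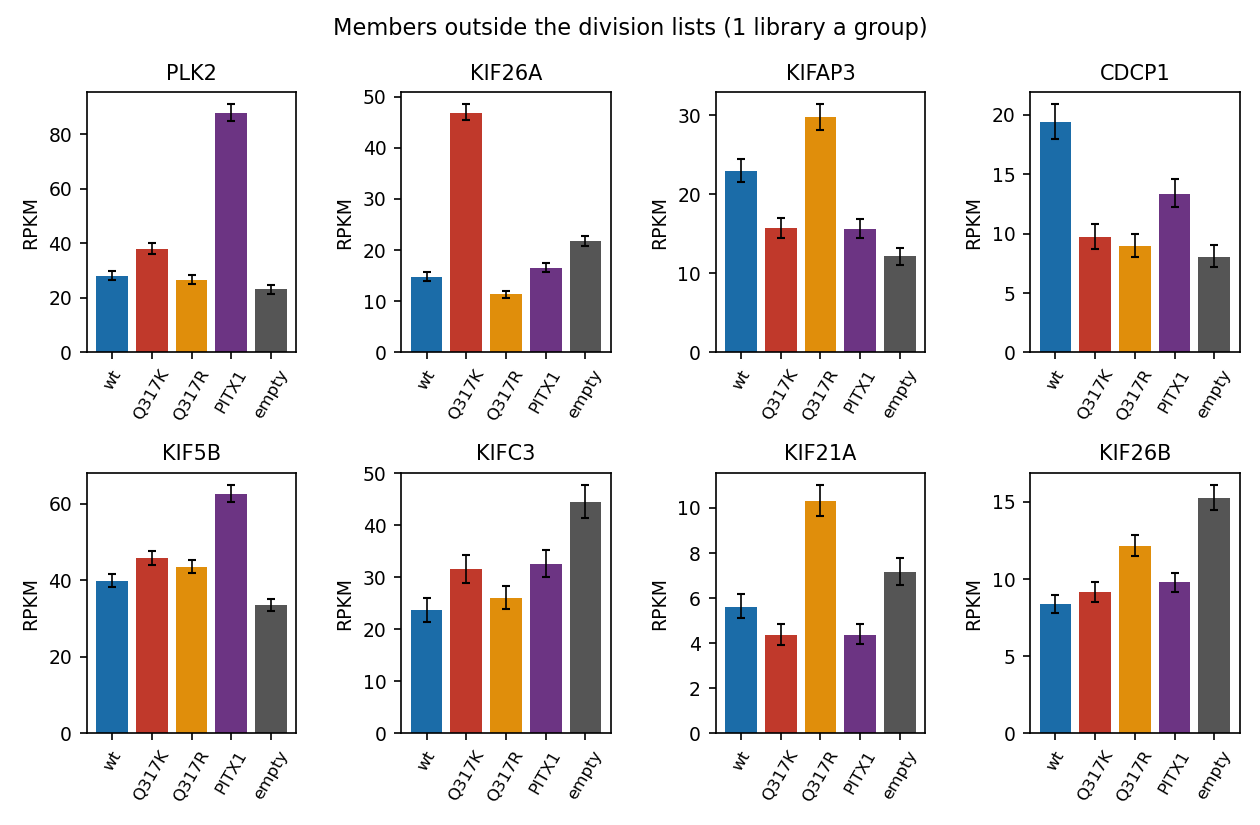
RPKM of 8 members outside the division lists in the 5 RNA libraries, 1 library a group; bars start at 0 and error bars are 95% exact Poisson intervals of the reads. PLK2 peaks in PITX1 at 87.9 RPKM, KIF26A in Q317K at 46.9, KIFAP3 in Q317R at 29.7 and CDCP1 in HOXD13 wt at 19.4, while KIFC3 and KIF26B are highest in the empty vector.

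Among the 18 genes known mainly for other work, PLK2 and CDCP1 had the widest ranges, with their highest levels in PITX1 and in HOXD13 wt. PLK2, a Polo-like kinase induced by growth factors and stress, was at 87.9 RPKM in PITX1, 38.1 in Q317K, 28.2 in HOXD13 wt, 26.6 in Q317R and 23.1 in the empty vector. The ratio in PITX1 was 3.80 (3.52 to 4.11), the largest of all members in the 4 comparisons with the empty vector, and the globin genes HBE and HBB were high in that library too, while TAL1 and HBAD were not; their part in it was not tested. PLK3, another stress-linked Polo-like kinase, had 26.0 RPKM in the empty vector and 15.0 to 20.4 in the others, so these paralogs were at opposite ends. CDCP1, a membrane protein and no cell cycle gene, was at 19.4 RPKM in HOXD13 wt, 13.4 in PITX1, 9.71 in Q317K, 8.97 in Q317R and 8.06 in the empty vector. Both mutants stood lower than the wild type for CDCP1, with ratios of 0.50 (0.438 to 0.571) for Q317K and 0.462 (0.406 to 0.525) for Q317R.

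The small GTPase CDC42, which organises actin and polarity, was the most abundant of them and differed little, from 74.8 RPKM in the empty vector to 93.2 in PITX1. Several of its partners differed more. CDC42BPB, a kinase that acts on myosin, was at 47.1 RPKM in the empty vector, 42.7 in HOXD13 wt, 55.4 in Q317R, 63.0 in Q317K and 81.1 in PITX1. CDC42EP4, which binds septins, was at 54.7 RPKM in PITX1, 43.8 in the empty vector, 40.3 in Q317K, 34.2 in Q317R and 23.9 in HOXD13 wt. Both had their highest level in PITX1 and their lowest in HOXD13 wt. CDC42SE2, a small binding protein of CDC42, stood at 12.5 RPKM in Q317R against 5.98 in the empty vector, but on 53 and 23 reads, and its ratio of 2.096 had a wide interval (1.26 to 3.58). CDCP2 was highest in the empty vector, at 10.7 RPKM against 6.49 to 8.89. CDC2L6, an older label of the Mediator kinase CDK19, was at 31.0 RPKM in HOXD13 wt, 27.7 in Q317R, 21.4 in PITX1, 21.2 in Q317K and 16.9 in the empty vector.

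The kinesin KIF25, like KIF2B, was lower in each factor library than in the empty vector, with 11.4 RPKM there and 6.79 to 8.97 in the others. MCM3AP, a protein of mRNA export, was the most even member, at 24.9 to 27.6 RPKM.

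Between the HOXD13 libraries the medians of the division genes lay close together; counts of 1.5-fold here are on the log2 scale of RPKM + 1. Between Q317K and HOXD13 wt the median log2 ratio of the 38 was 0.03, against −0.04 over all genes tested, and 20 of 38 were above 0, against 45.0% of all genes. At least 1.5-fold higher in Q317K were ANLN and KIFC1, or 2 of 38, against 6.70% of all genes, and none was lower, against 7.32%. Kinetochore genes leaned the other way, with a median of −0.14 and 3 of 11 above the wild type. Between Q317R and HOXD13 wt the median was 0.12, against 0.05 over all genes, with 28 of 38 above 0, against 58.2%. None of the 38 was 1.5-fold apart there, against 4.29% of all genes higher and 3.90% lower. Between Q317K and PITX1 the median was 0.16, against 0.02, with 33 of 38 above 0, against 53.7%, and none was 1.5-fold apart on that scale, against 4.55% higher and 4.29% lower. ANLN came closest, at 0.55, and without the added 1 its ratio was the 1.5 given above.

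Taken over all 82 members, the comparison with the empty vector gave 11 genes at least 1.5-fold higher and 4 lower in HOXD13 wt, 11 and 3 in Q317K, 15 and 3 in Q317R, and 7 and 4 in PITX1. As shares of the 82, 13.4%, 13.4%, 18.3% and 8.54% were higher, against 6.91%, 6.63%, 6.45% and 5.52% of all genes. Lower were 4.88%, 3.66%, 3.66% and 4.88%, against 8.54%, 10.3%, 5.98% and 9.58%. The median log2 ratios of all members were 0.17, 0.24, 0.27 and 0.12. The 44 members outside the division lists had medians of 0.02, 0.01, 0.09 and −0.03. The highest level of a member was 1.11 to 4.13 times its lowest, with a median of 1.51 against 1.501 over all genes tested. Only 2 of the 38, CDK1 and ANLN, spanned 2-fold or more, or 5.26%, against 18% of all genes.

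Few members, like few of all genes, were 2-fold apart on the log2 scale of RPKM + 1. Against the empty vector these were CDCP1 in HOXD13 wt, or 1 of 82 (1.93% of all genes were higher by as much), CDK1, ANLN and KIF26A in Q317K, or 3 (1.77%), KIFAP3 in Q317R, or 1 (1.59%), and PLK2 in PITX1, or 1 (1.61%). No member was 2-fold lower, where 2.19%, 2.42%, 1.74% and 2.37% of all genes were. Between Q317K and HOXD13 wt 1 member, KIF26A, was 2-fold higher and 0 were lower, against 2.43% and 2.73% of all genes. Between Q317R and HOXD13 wt 0 were higher and 1, CDCP1, was lower, against 1.27% and 1.38%. Between Q317K and PITX1 KIF26A was higher and PLK2 lower, or 1 each, against 1.57% and 1.31%. With 82 members, these 2-fold counts were near those of all genes.

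Among cell cycle genes outside the name rule, most of the replication and mitosis lists were above the empty vector, and those of G1 control and arrest were mixed. Of 19 measured replication and nucleotide genes, 16 were above the empty vector in HOXD13 wt, 13 in Q317K, 17 in Q317R and 14 in PITX1. The shares over all genes were 46.7%, 44.6%, 50.5% and 42.0%. Median log2 ratios of the 19 genes were 0.30, 0.26, 0.44 and 0.24. At least 1.5-fold higher were 4, 2, 7 and 1 of them (21.1%, 10.5%, 36.8% and 5.26%), against 6.91%, 6.63%, 6.45% and 5.52% of all genes, so PITX1 was near the background. None was 1.5-fold lower, against 8.54%, 10.3%, 5.98% and 9.58%. RRM1 and RRM2, the subunits of ribonucleotide reductase, stood at 39.0 and 43.1 RPKM in the empty vector and at 70.7 and 71.6 in Q317R. PCNA, the sliding clamp of DNA polymerases, was at 39.1 RPKM in the empty vector, 52.0 in PITX1, 54.8 in HOXD13 wt, 62.0 in Q317R and 63.2 in Q317K.

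Of 32 measured mitosis genes, 30, 29, 31 and 27 were above the empty vector in HOXD13 wt, Q317K, Q317R and PITX1. The shares over all genes were 46.7%, 44.6%, 50.5% and 42.0%. Median log2 ratios of the 32 genes were 0.39, 0.33, 0.49 and 0.19. The number at least 1.5-fold higher was 6, 3, 10 and 0 (18.8%, 9.38%, 31.2% and 0%), against 6.91%, 6.63%, 6.45% and 5.52% of all genes. None was lower, against 8.54%, 10.3%, 5.98% and 9.58%. PBK, a mitotic kinase, had 23.5 RPKM in the empty vector and 30.8 to 47.3 in the others. TPX2, which activates Aurora A on the spindle, had 18.6 RPKM in the empty vector and 22.3 to 29.3 in the others. RACGAP1, of the spindle midzone, was highest in Q317K at 33.0 RPKM, against 19.2 in the empty vector. PBK and TPX2 were highest in Q317R.

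The next list held genes linked to proliferation, of which 5 measured ones act on chromatin, 2 are lamins (LMNB1 and LMNB2) and 1 is STMN1, a microtubule regulator. Of these 8, 7 were above the empty vector in HOXD13 wt and all 8 in the other factor libraries. Over all genes 46.7% were above it in HOXD13 wt, 44.6% in Q317K, 50.5% in Q317R and 42.0% in PITX1. In the same order the median log2 ratios of the 8 were 0.49, 0.56, 0.55 and 0.44. At least 1.5-fold higher were 4, 4, 2 and 1 of the 8 (50%, 50%, 25% and 12.5%), against 6.91%, 6.63%, 6.45% and 5.52% of all genes. None was 1.5-fold lower, against 8.54%, 10.3%, 5.98% and 9.58%. HMGN2, a nucleosome-binding protein, was at 84.2 RPKM in the empty vector and 108 to 128 in the others. The histone variant gene H2AFZ was at 63.6 RPKM in the empty vector, 67.3 in HOXD13 wt and 99.7 in Q317K. HMGB2, a DNA-bending protein, was level between the empty vector (45.8 RPKM), Q317K (46.5) and PITX1 (46.7) and higher in Q317R (66.2) and HOXD13 wt (74.95).

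Of 10 measured genes of G1 control, none was 1.5-fold higher in any factor library, against 6.91%, 6.63%, 6.45% and 5.52% of all genes. In each factor library 1 (10%) was lower, against 8.54%, 10.3%, 5.98% and 9.58% of all genes. With 10 genes, both counts were near those of all genes. The lower gene was MYC in HOXD13 wt and Q317R and its relative MYCN in Q317K and PITX1. The median log2 ratios were 0.18 in HOXD13 wt, 0.02 in Q317K, 0.12 in Q317R and 0.06 in PITX1. The transcription factor MYC had 87.6 RPKM in the empty vector, 79.3 in PITX1, 59.0 in Q317K, 38.0 in Q317R and 36.4 in HOXD13 wt. MYCN had 20.6 RPKM in the empty vector, 17.8 in Q317R, 16.5 in HOXD13 wt, 11.8 in PITX1 and 11.6 in Q317K. Both were highest in the empty vector, where the summed level of the division members was lowest. CCND1, the cyclin D of the response to growth factors, was at 60.03 RPKM in the empty vector, 53.4 in Q317K and 82.0 in HOXD13 wt, and E2F1, which activates genes of S phase, at 35.6 in the empty vector and 36.4 to 46.0 in the others.

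Of 9 measured CDK inhibitors and arrest genes, 3, 4, 4 and 2 were above the empty vector in HOXD13 wt, Q317K, Q317R and PITX1. The shares over all genes were 46.7%, 44.6%, 50.5% and 42.0%. Median log2 ratios of the 9 genes were −0.27, −0.21, −0.04 and −0.39. Of the 9, 1, 2, 1 and 0 were at least 1.5-fold higher (11.1%, 22.2%, 11.1% and 0%), against 6.91%, 6.63%, 6.45% and 5.52% of all genes. The number lower was 2, 2, 2 and 3 (22.2%, 22.2%, 22.2% and 33.3%), against 8.54%, 10.3%, 5.98% and 9.58%. BTG1 and BTG2, antiproliferative genes, stood at 256 and 226 RPKM in the empty vector, 264 and 376 in Q317R and 170 and 120 in Q317K. CCNG1, a target of p53, was at 120 RPKM in the empty vector and 61.3 to 100.01 in the factor libraries. Q317R thus held the highest BTG2 together with the highest level of 20 of the 38 division members.

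**Figure D5:**
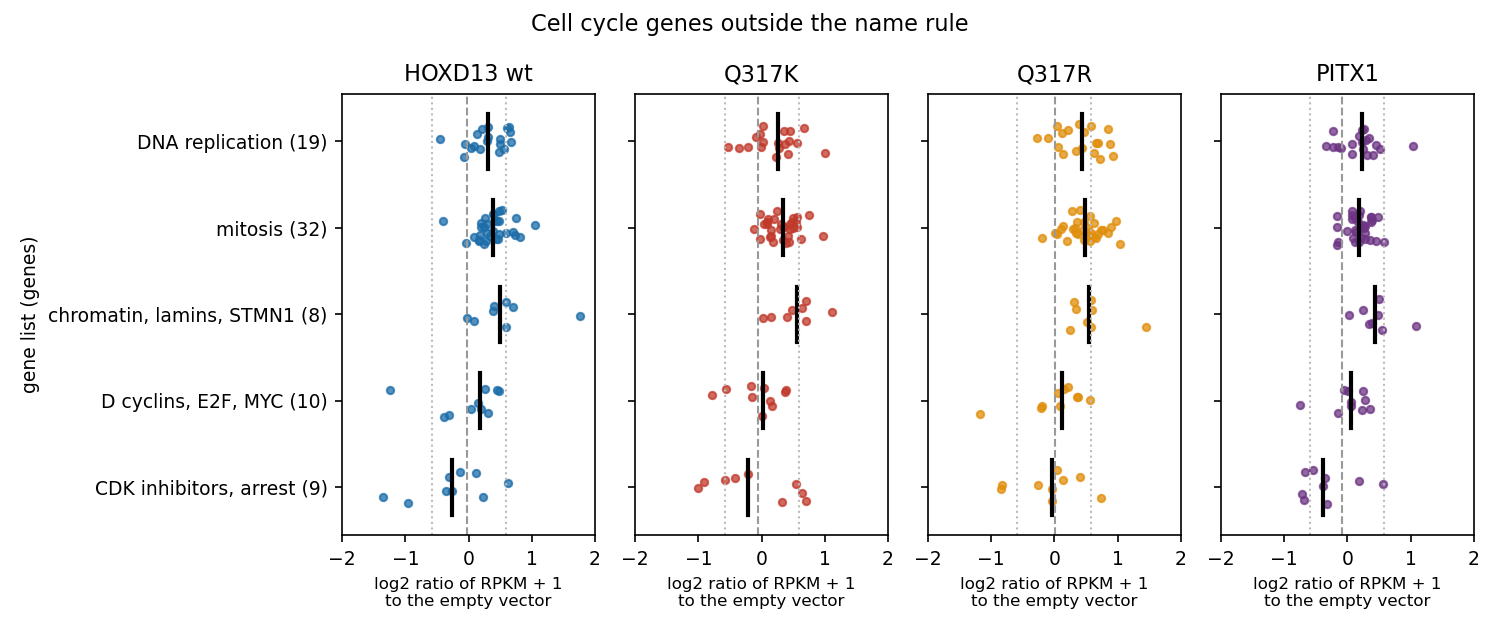
Log2 ratio of RPKM + 1 to the empty vector for 5 lists of cell cycle genes outside the name rule; points are genes, black lines medians, the dashed line the median of all genes tested and dotted lines 1.5-fold. The medians of the replication and mitosis lists and of the list of chromatin genes, lamins and STMN1 lie right of the dashed line in all 4 panels, though single genes lie left of it, and MYC is the leftmost point of its list at −1.25 in HOXD13 wt.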

How the data were processed

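The authors deposited 1 RPKM value per library for each of 21998 Ensembl transcripts, per the file headers. Names of aligner, counter, build and annotation were not given in the sources used here. No row held a 0. Because RPKM is reads divided by length and library total, the ratios between columns gave back whole reads, transcript lengths and library totals. All 21998 rows came out whole within 0.001 of a read. Each row was given the smallest whole length and reads that fit, so its reads may be too low by a common factor. Recovered reads summed to 98.8% to 98.9% of the library totals. Reads served for counting intervals, for the read numbers given, for the share of cartilage marker reads and for RPKM taken per read outside these markers. Groups were taken from sample titles; the column named "leer" (German for empty) is the empty vector. The peak lists and inputs of the series were not used here.

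Each comparison took log2 of RPKM + 1 in both libraries and their difference. Members 1.5-fold or more apart were counted beside the same count over the 15692 genes with a mean of at least 2 RPKM, each by its transcript of highest mean. The added 1 makes differences of low genes look smaller. Where the text gives a ratio with an interval, it is plain RPKM with a 95% exact (Clopper-Pearson) interval. With 1 library a group no p-values were computed. Named were the 4 members of highest mean in each role list, the 4 largest ratios in each direction against the empty vector and the 3 highest genes of each of 5 other lists; further members were named after their values were seen. Members and lists were chosen with earlier results of these data known. Symbols such as CDK1 were written by hand for UniProt-style labels. The steps were tested on simulated data. Marker lists of cartilage, erythroid, skeletal muscle, endothelial, epithelial, neuronal, macrophage and fibroblast cells were also measured. Software was pandas 2.3.3, scipy 1.17.1, numpy 2.4.6 and matplotlib 3.10.9 under Python 3.11.15.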

Additional observations from a re-analysis of the deposited data

How the results depend on the processing

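No paired analysis was possible because each group had 1 RNA library. The median log2 ratios of the 38 division members to the empty vector stayed within 1.5 times under the settings tried for them: rescaling, added members and reads outside cartilage markers. Over all 82 members, rescaling to a median of 0 over all genes moved the median from 0.12 to 0.20 in PITX1, from 0.123 to 0.0759 between Q317R and HOXD13 wt, from 0.0548 to 0.0332 between Q317K and PITX1 and from −0.0048 to 0.0336, across 0, between Q317K and HOXD13 wt. With a mean of at least 5 RPKM the last 2 were 0.0836 and 0.0425. The 38 division members alone had medians of 0.29 in HOXD13 wt, 0.46 in Q317R, 0.20 in PITX1, 0.0272 between Q317K and HOXD13 wt and 0.16 between Q317K and PITX1. Counting only the 38 division members gave 7, 6, 9 and 2 genes at least 1.5-fold higher and 0 lower than the empty vector in HOXD13 wt, Q317K, Q317R and PITX1; between Q317K and HOXD13 wt it gave 2 higher and 0 lower, between Q317R and HOXD13 wt and between Q317K and PITX1 0 and 0. The shares higher than the empty vector were 18.4%, 15.8%, 23.7% and 5.26% of the 38, against 13.4%, 13.4%, 18.3% and 8.54% of the 82. Over all genes they were 6.91%, 6.63%, 6.45% and 5.52%, so in PITX1 the 38 were near the share of all genes. The 82 include the 38. The 4, 3, 3 and 4 members lower than the empty vector were all outside the division lists, but this depends on the names listed. Among those lower in Q317K was KIF2B, at a log2 ratio of −0.61, which is linked to division but was in no list. With a threshold of 2-fold, 1, 3, 1 and 1 of the 82 were higher than the empty vector and 0 lower. Over all genes 1.93%, 1.77%, 1.59% and 1.61% were higher and 2.19%, 2.42%, 1.74% and 2.37% lower. Between Q317K and HOXD13 wt 1 was higher and 0 lower, against 2.43% and 2.73% of all genes. Between Q317R and HOXD13 wt 0 were higher, against 1.27%. After rescaling to a median log2 ratio of 0 over all genes, 1 member was lower in Q317K and 0 in PITX1. With a pseudocount of 0.1 RPKM, 2 were lower between Q317K and HOXD13 wt and 2 higher between Q317K and PITX1. The genes named by rule were also checked in each of the 4 comparisons with the empty vector, with 1 result per gene and comparison. Rescaling left 188 of these results on the same side of the threshold and moved 6 below and 2 above it. The pseudocount left 189 and moved 7 above it, and the longest transcript left 195 and moved 1 below it. None reversed. Low counts limit the small kinetochore genes and CDC42SE2.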

Other observations

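Markers of other cell types did not share the order of the division genes. Summed over the measured genes, skeletal muscle markers (5 of 9 listed) ranged from 51.1 RPKM in HOXD13 wt to 128 in Q317K. ACTC1 and TNNI1 made up most of the Q317K sum (73.5 and 35.9 RPKM), and MYF5 and MYOG were lower there (5.49 and 5.96) than in the empty vector (8.49 and 8.59). Tendon and fibroblast markers (4 of 7) ranged from 438 in Q317R to 1450 in Q317K, where all 4 were above the empty vector. Endothelial markers (4 of 6) ranged from 32.4 in Q317K to 45.1 in the empty vector, with PECAM1 the 1 of 4 that was lowest in the empty vector, at 3.28. Epithelial markers (4 of 6) ranged from 38.3 in Q317K to 72.6 in PITX1. The PITX1 sum held 42.8 RPKM of KRT19, while KRT8 and CDH1 were lower there (16.6 and 8.51) than in the empty vector (24.6 and 12.6). Neuronal markers (4 of 6) ranged from 18.1 in PITX1 to 28.2 in Q317K. Of the Q317K sum 12.4 RPKM was STMN2, against 3.33 in the empty vector, and the other 3 genes were at or below their level in the empty vector. Of 6 listed macrophage markers none was measured under its symbol.

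STMN1, which destabilises microtubules and is high in many dividing cells, had the largest ratio of its list, at 16.7 RPKM in the empty vector, 36.5 in PITX1, 37.4 in Q317K, 47.3 in Q317R and 59.1 in HOXD13 wt. MKI67, the proliferation marker, stood at 8.05 RPKM in the empty vector, 11.1 in Q317K, 11.7 in PITX1, 14.1 in HOXD13 wt and 17.7 in Q317R, and a second Ensembl gene of that label at 6.65 in the empty vector and 7.41 to 10.4 in the others. UHRF1, which keeps DNA methylation through replication, stood at 20.3 RPKM in the empty vector, 28.9 in HOXD13 wt, 38.2 in Q317R, 41.7 in Q317K and 42.7 in PITX1. The CDK inhibitor CDKN1A was low throughout, at 4.99 RPKM in Q317K, 2.68 in the empty vector, 1.96 in HOXD13 wt, 1.81 in PITX1 and 1.04 in Q317R. These genes were chosen after their values were seen.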
